A study of Mus musculus with 30 samples.

Results

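The kinesin motor genes were followed through the first 4 days of embryoid body differentiation and between 2 genotypes. Kinesins are motor proteins that use ATP to walk along microtubules or to take their ends apart. Members were all genes whose symbol was Kif with a number and at most the letter a, b or c, or Kifc with a number. This gave 40 genes of the 23284 in each table. The choice used no measured value, but earlier results of these data were known when it was made. They were grouped by their best known role into 13 mitotic motors, 15 transport motors, 6 motors of the cilium and Hedgehog signalling, and 6 other motors.

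Mitotic kinesins build and shorten the spindle, move chromosomes and finish cytokinesis, and dividing cells make them anew in G2 and mitosis. Transport kinesins carry vesicles, organelles and protein complexes towards microtubule ends; kinesin-1 (Kif5) and kinesin-3 (Kif1, Kif13, Kif16b) are best known from axons, and kinesin-2 (Kif3, Kif17) also carries cargo into cilia. Embryonic stem (ES) cells divide fast, and embryoid bodies (EBs), the aggregates they form in suspension, pass through an epiblast-like state into mesendoderm, the precursor of mesoderm and endoderm.

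RNA was sequenced from 14 libraries, 2 in each group. Of these, 10 came from wild type E14Tg2a.IV cells (129/Ola, called E14 here), as ES cells at day 0 and as EBs at days 1, 2, 3 and 4. The other 4 came from day 4 EBs of a C57BL/6J background, 2 of a Trp53+/+ line and 2 of a Trp53-/- line with added short hairpin RNAs against p63 and p73 (p53 family loss). E14 cells had been kept with LIF and serum, and the C57BL/6J lines in N2B27 with LIF and 2 inhibitors (PD0325901 and CHIR99021). The labels name 1 line per genotype, so genotype and line cannot be told apart, and nothing in them says if paired libraries grew as separate cultures. The p-values therefore measure only the spread between these libraries.

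Libraries held 20104644 to 39835808 reads in the time course and 19104692 to 31580252 in the genotype table. Values are scaled counts, that is, reads divided by 1 factor per library, and the 2 tables were scaled separately. Changes are differences of log2(scaled count + 1) with a standard error from limma, and a gene was called at a Benjamini-Hochberg adjusted p under 0.05 over all genes tested. The 6 naive ES cell markers all fell and the 6 mesendoderm markers all rose from day 0 to day 4. In p53 family loss, Trp53 was at 866 and 802 against 8339 and 11784, Trp73 at 48 and 52.5 against 219 and 297, and Trp63 at 4.43 and 0 against 6.08 and 5.31, too low to be tested. The first day 0 library stood apart: it held 9923 scaled counts of Cdkn1a, a p53 target that arrests the cell cycle, against 1272 in the second, and 5859.9 of the immediate early gene Fos against 144.

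Between day 0 and day 4, 15 of 39 tested members changed, 12 higher and 3 lower, beside 36% of all 15841 genes tested. Of the 12 mitotic motors tested, 0 rose and 2 fell, with a median log2 change of -0.26; of the 15 transport motors 6 rose and 1 fell, with a median of 0.016. In the cilium and Hedgehog group 1 of 6 rose (median 0.73), and among the other motors 5 of 6 rose (median 1.88). Over all genes tested the median was 0.013, with 19.2% called higher and 16.7% lower. edgeR and DESeq2 called 2 mitotic motors lower and 0 higher as well. Of all genes they called 16.7% and 19.6% lower and 18.8% and 20% higher, so the lower count lay near the share of all genes. At an unadjusted p under 0.05 each of the 3 tools had the same 2 mitotic motors, Kif18a and Kifc1, both lower, and 0 higher. Limma, edgeR and DESeq2 had 46.6%, 46.6% and 47.4% of all genes there, in either direction. The count of 15 was 23 without the first day 0 library and 9 without either library of day 4 (beside 40.8%, 17.7% and 17.9% of all genes). The remaining member, the mitotic motor Kif2b, had 0 reads in all 14 libraries, where the limit that a count of 0 allows is 3 reads per library. In these bulk samples, fewer cells of a type and less RNA per cell cannot be told apart.

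**Figure D1:**
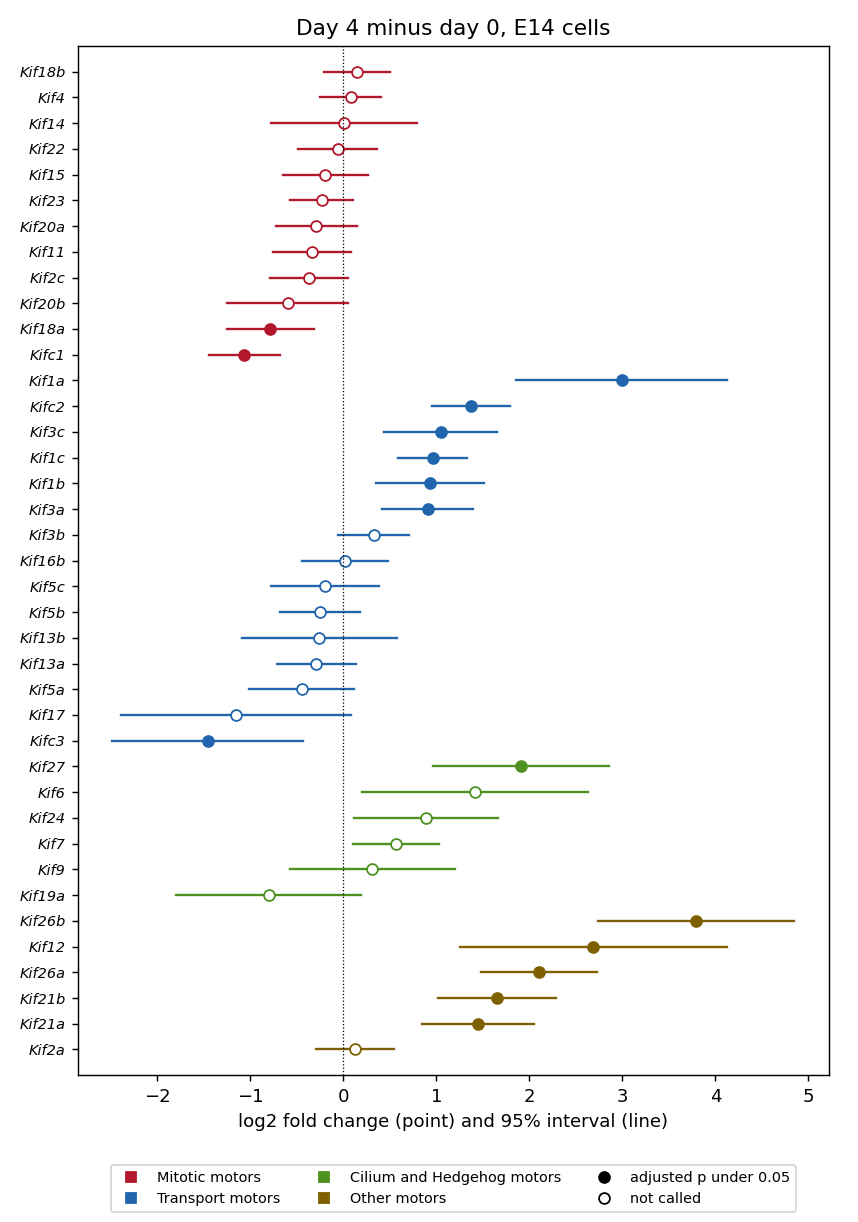
Log2 fold change from day 0 to day 4 in E14 cells for the 39 kinesin genes tested, grouped and coloured by class, with the 95% interval of the limma fit (5 residual degrees of freedom); filled points have an adjusted p under 0.05. The mitotic motors lie between -1.06 and 0.15, while 5 of the 6 other motors lie above 1.

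The range of the day means, highest minus lowest on the log2 scale, had a median of 0.46 over the mitotic motors, 1.05 over the transport motors, 1.06 over the cilium and Hedgehog motors and 1.91 over the other motors, beside 1.01 over all genes tested. It was over 1 for 1 of 12 mitotic motors (8.33%) and for 8 of 15 transport motors (53.3%), beside 50.5% of all genes. A change on any day passed limma's moderated F-test for 14 of 39 members, beside 38.9% of all genes, and these were 1 mitotic (Kifc1), 7 transport, 1 cilium and 5 other motors. This count was 23 without the first day 0 library, 25 without the second, and 9 without either library of day 4 (beside 51.9%, 65.7%, 22.5% and 21.7% of all genes).

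**Figure D2:**
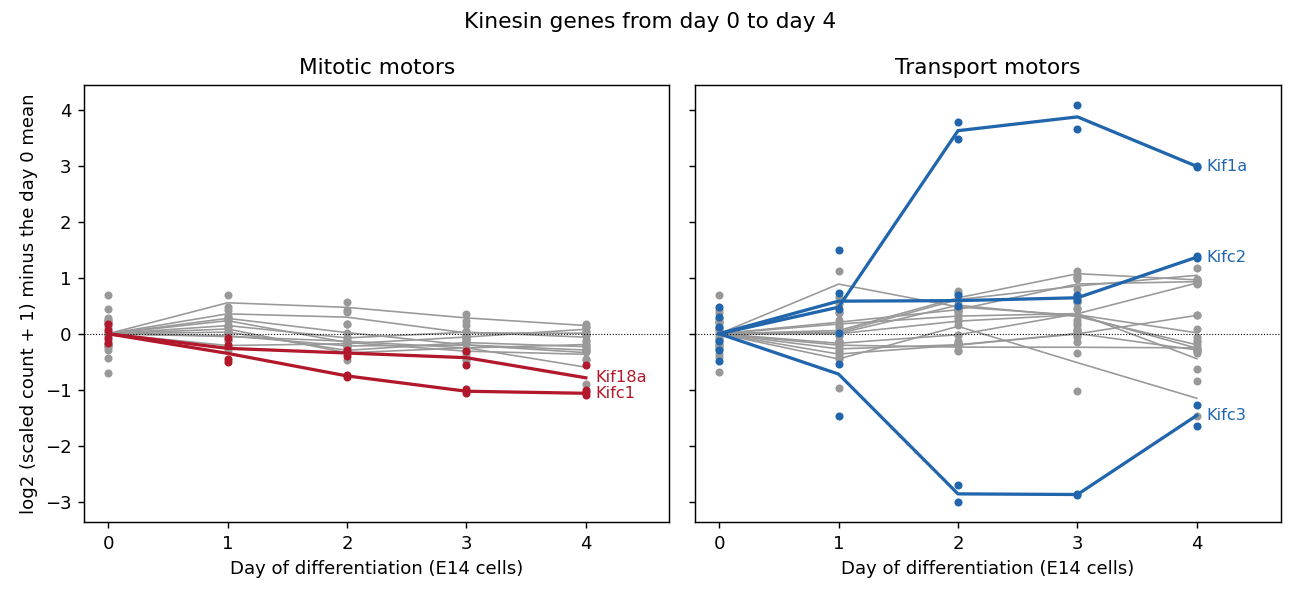
Log2(scaled count + 1) minus the day 0 mean for the 12 mitotic (left) and 15 transport motors tested (right) in E14 cells; points are libraries, 2 on each day; lines join the day means, and colour marks the genes named beside their lines, with all others in grey. Lines of the mitotic motors stay close to 0, with Kifc1 and Kif18a lowest at day 4, while Kif1a ends 2.99 above and Kifc3 1.46 below its day 0 mean.

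Genes used in G2 and mitosis often carry, close to their start, a cell cycle genes homology region (CHR), the element through which the DREAM and MuvB complexes act, frequently with CCAAT boxes, which NF-Y binds, some distance upstream. The letters of these motifs were sought in RefSeq promoters (GRCm38.p6), which run from 250 bases before the start to 50 after it and matched 32 of the 40 members. The CHR search took TTTGAA or TTCGAA and the CCAAT search CCAAT, both on either strand, and the matches of the 2 motifs overlapped in 0 of 36 member promoters. A CHR match was in 10 of the 12 promoters of mitotic motors (83.3%), and 1 of 12 promoters of transport motors (8.33%, from 10 of the 15 genes), beside 19.2% of all 32851 promoters. The mitotic promoters came from 12 of the 13 genes, with Kif2b, which had no reads, among them. They are therefore not the same 12 motors as those tested. It was also in 17 of 22 promoters of the mitotic partner genes described further on (77.3%), in 2 of 6 of the cilium and Hedgehog motors and in 1 of 6 of the other motors. The CCAAT box was in 8 of the 12 mitotic (66.7%) and 4 of the 12 transport promoters (33.3%), beside 37.4% of all. Kif18a and Kif2b were the mitotic motors whose promoters held no CHR match. A match describes letters only, and binding at these promoters was not measured here.

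**Figure D3:**
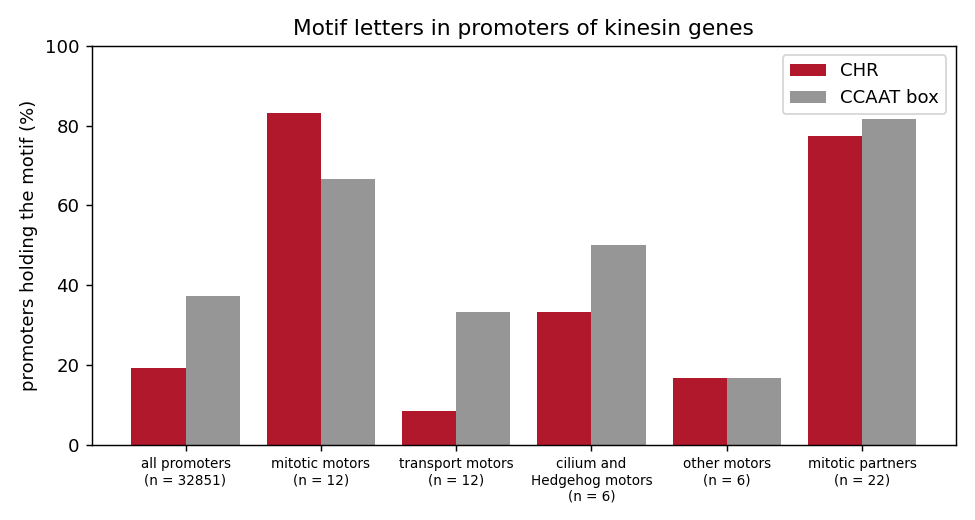
Percent of RefSeq promoters (300 bases each) that hold the letters of a CHR (red) or a CCAAT box (grey), for all promoters, the 4 kinesin classes and the mitotic partner genes; n is the number of promoters. The CHR bar is 83.3% for mitotic and 8.33% for transport motors, beside 19.2% for all promoters.

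The stretches below hold the CHR match nearest to the start in each mitotic motor with one, and, for contrast, in Kif1a, the transport motor with a match, and in Kif26b and Kif24. Each is printed 5′ to 3′ on the gene's strand, with CHR and CCAAT matches in capitals; base -1 is the last before the start and base 1 the first transcribed. In Kif11, Kif15 and Kif22 the CHR letters (TTCAAA, the reverse complement of TTTGAA) ended 12 to 14 bases before the start, in Kif18b, Kif20b, Kif23, Kif4 and Kifc1 they began 2 to 20 bases after it, and in Kif2c and Kif14 they lay farther upstream. Kif11 and Kif22 also held a CCAAT box on the reverse strand (ATTGG) within the printed 60 bases, and Kif23 within its 30.
Kif11 (chr19:37376322-37376381, plus strand, bases -60 to -1): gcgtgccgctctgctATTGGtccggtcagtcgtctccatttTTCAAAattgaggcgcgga
Kif15 (chr9:122951021-122951080, plus strand, bases -60 to -1): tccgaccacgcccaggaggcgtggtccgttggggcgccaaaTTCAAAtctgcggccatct
Kif22 (chr7:127042421-127042480, minus strand, bases -60 to -1): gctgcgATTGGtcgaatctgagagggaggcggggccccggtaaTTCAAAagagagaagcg
Kif23 (chr9:61946780-61946809, minus strand, bases -10 to 20): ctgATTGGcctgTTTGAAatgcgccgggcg
Kif18b (chr11:102925104-102925133, minus strand, bases -9 to 21): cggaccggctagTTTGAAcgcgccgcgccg
Kif20b (chr19:34922353-34922382, plus strand, bases -5 to 25): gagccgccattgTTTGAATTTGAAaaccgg
Kif4 (chrX:100626072-100626101, plus strand, bases 8 to 37): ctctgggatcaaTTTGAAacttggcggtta
Kifc1 (chr17:33890615-33890644, minus strand, bases -11 to 19): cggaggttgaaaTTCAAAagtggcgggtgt
Kif2c (chr4:117178843-117178902, minus strand, bases -130 to -71): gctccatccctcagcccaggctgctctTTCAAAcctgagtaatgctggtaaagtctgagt
Kif14 (chr1:136467598-136467657, plus strand, bases -250 to -191): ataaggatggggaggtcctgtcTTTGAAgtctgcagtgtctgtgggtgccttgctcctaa
Kif1a (chr1:93082492-93082551, minus strand, bases -71 to -12): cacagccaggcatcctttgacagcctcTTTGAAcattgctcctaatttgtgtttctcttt
Kif26b (chr1:178529065-178529124, plus strand, bases -60 to -1): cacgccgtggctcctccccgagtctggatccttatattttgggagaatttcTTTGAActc
Kif24 (chr4:41464849-41464908, minus strand, bases -60 to -1): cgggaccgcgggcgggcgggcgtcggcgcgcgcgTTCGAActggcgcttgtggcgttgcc

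Among the mitotic motors, the spindle-pole motor Kifc1 fell the most. Kifc1, a minus-end directed kinesin-14 that focuses spindle poles, was at 7728 and 6133 scaled counts at day 0, 6013 and 4848 at day 1, 4015 and 4152 at day 2, 3469 and 3286 at day 3 and 3355 and 3229 at day 4. Both day 4 libraries were below both of day 0, and the means differed 2.11-fold, a log2 change of -1.06 ± 0.17 (SE, adjusted p = 0.00134). Its near-identical copy Kifc5b changed by -0.86 (adjusted p = 0.0145), and reads of the 2 copies may have been split between them, so the level of Kifc1 alone is uncertain. The sum of both copies was 10244.7 and 7773 at day 0 and 4581 and 4255 at day 4, a 2.04-fold lower mean.

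Kif18a, which dampens chromosome movements at the metaphase plate, was at 2212 and 2437 at day 0 and 1571 and 1151 at day 4, without overlap, a log2 change of -0.79 ± 0.21 (SE, adjusted p = 0.0164). Days 1 to 3 ranged from 1583 to 2215. The call was lost without the second day 4 library (adjusted p = 0.15) and in a fit of days 0 and 4 alone (0.0753).

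The best known spindle and cytokinesis motors did not pass the test between day 0 and day 4. Kif11 (Eg5), which pushes spindle poles apart, was at 6798 and 9466 at day 0 and 6853 and 5882 at day 4, and the groups overlapped (log2 change -0.34 ± 0.19 (SE, adjusted p = 0.188), 95% interval -0.76 to 0.084). Kif20a, needed for cytokinesis, was at 6635 and 9005 and 6319 and 6311 (-0.29 ± 0.19 (SE, adjusted p = 0.264)). Kif23 (MKLP1), the motor of centralspindlin, was at 5253 and 6172 and 5181 and 4544 (-0.23 ± 0.15 (SE, adjusted p = 0.257)). For these last 2 motors both day 4 libraries lay below both day 0 libraries, but the differences did not pass the test. Kif22, which pushes chromosome arms from the poles, was at 4693 and 6275 and 5360.4 and 5047 (-0.061 ± 0.19 (SE, adjusted p = 0.823)), with both day 4 libraries inside the range of day 0. Kif4, a chromokinesin that limits microtubule growth in the midzone, was at 3142 and 3026 and 3358 and 3166 (0.08 ± 0.15 (SE, adjusted p = 0.694)), higher in both day 4 libraries without passing the test. Kif2c (MCAK), which takes microtubule ends apart at centromeres, was at 4672 and 6017 and 4435 and 3808 (-0.37 ± 0.19 (SE, adjusted p = 0.155)), lower in both day 4 libraries without passing the test.

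Of the remaining mitotic motors tested, Kif20b had the lowest estimate, -0.60 ± 0.29 (SE, adjusted p = 0.136), from 4387 and 8044 at day 0 and 4822 and 3196 at day 4. Kif15, a second spindle-separating motor beside Kif11, had -0.19 ± 0.21 (SE, adjusted p = 0.492), and Kif14, a cytokinesis motor, 0.0095 ± 0.35 (SE, adjusted p = 0.986). Kif18b, which acts on astral microtubules, had 0.15 ± 0.16 (SE, adjusted p = 0.5). Kif18b was highest at day 1 (3715 and 3075 against 2337 and 2266 at day 0), a log2 step of 0.55 ± 0.16 (SE, adjusted p = 0.0978). Both of its day 4 libraries (2599 and 2499) also lay above both of day 0.

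The mitotic estimates moved with the day 0 libraries. Of the 12 motors, 9 were lower in the first day 0 library, the one with high Cdkn1a and Fos, than in the second, with a median difference of -0.39 on the log2 scale, beside 49.1% of all genes and a median of 0.013. Kif14 was at 1036 and 2713 and Kif20b at 4387 and 8044 in these 2 libraries, while Kifc1, Kif4 and Kif18b were higher in the first. Without the first library, the median log2 change to day 4 over the 12 mitotic motors was -0.53, beside 0.0045 over all genes. Without the second library it was -0.085, beside 0.025. As single libraries were left out, Kif14 ran from -0.68 to 0.70, Kif18a from -1.01 to -0.56 and Kifc1 from -1.23 to -0.90. The part of the state of the first day 0 library in these values was not tested.

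**Figure D4:**
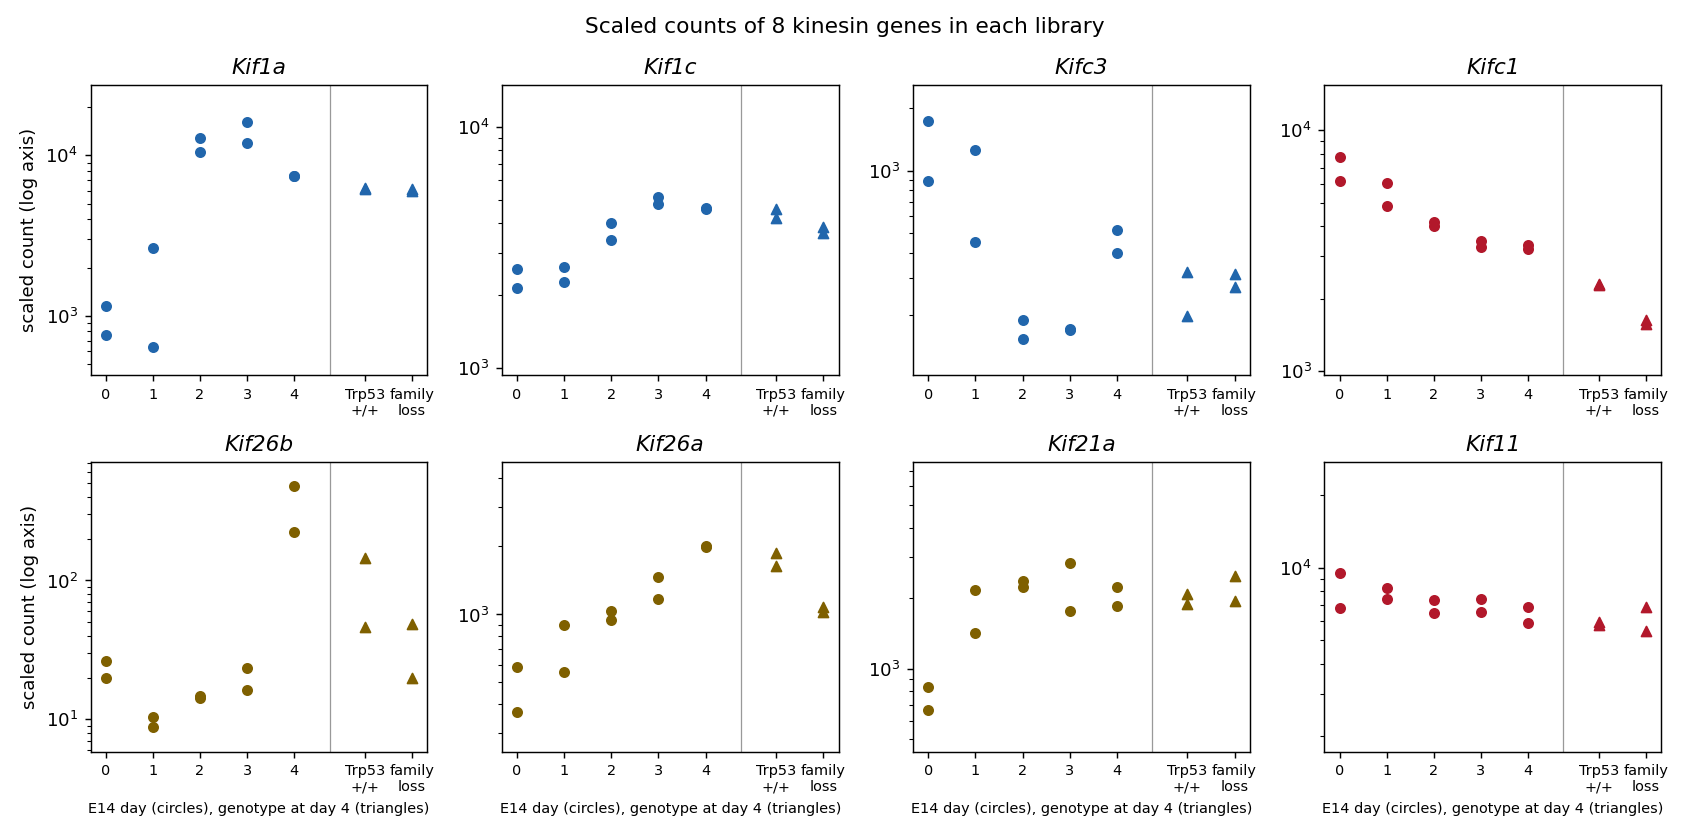
Scaled counts (log axis) of 8 kinesin genes in every library, with E14 days 0 to 4 as circles and the 2 genotypes at day 4 as triangles; colours give the class. Circles and triangles come from tables scaled separately, so their heights are not compared. Kif26b rises at day 4, Kif1a between days 1 and 2, and Kif26a is lower in both libraries of p53 family loss than in both Trp53+/+ libraries.

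Among the transport motors, the largest change was in Kif1a, a kinesin-3 that carries synaptic vesicle precursors in neurons. It was at 1150.2 and 765 at day 0, 643 and 2645 at day 1, 10507 and 12874 at day 2, 11881 and 16026 at day 3 and 7459 and 7477 at day 4. The 2 libraries of day 1 lay far apart, and all libraries of days 2 to 4 were above all earlier ones. From day 0 to day 4 the means differed 7.8-fold, a log2 change of 2.99 ± 0.51 (SE, adjusted p = 0.00179). The summed level of the 11 neuron and neural precursor markers went the other way, from 19413 and 18871 at day 0 to 3653 to 4386 at days 2 to 4, with 7 of 11 lower and 1 higher at day 4. The 1 marker called higher was Dcx (log2 change 2.50, adjusted p = 0.0236). It was at 0 and 0 at day 0, 11.7 and 15.1 at day 2, 45.8 and 13.1 at day 3 and 9.07 and 2.17 at day 4. Snap25, a synaptic protein, was at 14.2 to 65.8 in all 10 libraries. The part of neural cells in the Kif1a change was not tested.

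The 2 close relatives of Kif1a rose as well. Kif1c, a ubiquitous kinesin-3, was at 2155 and 2574 at day 0 and 4609.9 and 4571 at day 4, with a highest level at day 3 (4808 and 5118), a log2 change to day 4 of 0.96 ± 0.17 (SE, adjusted p = 0.00197). Kif1b, which carries mitochondria and synaptic vesicle precursors, was at 2106 and 3482 and 5308 and 5029, a log2 change of 0.93 (adjusted p = 0.0205). Neither gene's groups overlapped. The Kif1b call was lost without the first day 0 library (adjusted p = 0.076), without the first or second of day 4 (0.107 and 0.0841) and in a fit of days 0 and 4 alone (0.0768). The other kinesin-3 motors, Kif13a, Kif13b and Kif16b, had log2 changes of -0.29, -0.26 and 0.016, none of which passed the test; without the first day 0 library Kif13a and Kif13b were called lower (adjusted p = 0.0217 and 0.0108). Kif13b was at 566 and 1465 in the 2 day 0 libraries, a wider gap than between its day 4 libraries (793 and 732).

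The kinesin-1 heavy chains did not pass the test. Kif5b, the ubiquitous one, was at 8805 and 10024 at day 0 and 7359 and 8457 at day 4 (log2 change -0.25 ± 0.19 (SE, adjusted p = 0.328), 95% interval -0.68 to 0.18), and its day means spanned 0.25 over the 5 days, the smallest range of any transport motor. Kif5a, the neuron-enriched one, was at 701 and 943 and 680.4 and 523 (-0.45 ± 0.25 (SE, adjusted p = 0.192)), with both day 4 libraries below both day 0 libraries and a mean that was highest at day 3 (901 and 1212). Kif5c, also enriched in neurons, was at 1042 and 1535 and 1044 and 1164 (-0.20 ± 0.26 (SE, adjusted p = 0.58)), and the groups overlapped.

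Of the kinesin-2 motors, 2 of 4 rose. Kif3a, the shared partner in the heterotrimeric motor that builds cilia, was at 1183 and 888 at day 0 and 1929.7 and 1918 at day 4, 1.86-fold higher and without overlap (0.91 ± 0.22 (SE, adjusted p = 0.0106)). Kif3c, which pairs with Kif3a in neurons, was at 367 and 383 and 844 and 712 (1.05 ± 0.27 (SE, adjusted p = 0.0151)). Without the first or the second day 4 library both calls were lost, with adjusted p of 0.068 and 0.0658 for Kif3a and 0.111 and 0.0557 for Kif3c; the Kif3a call was also lost in a fit of days 0 and 4 alone (0.0527). Kif3b, the other partner of Kif3a, was at 1227 and 1374 and 1630.4 and 1632 (0.33 ± 0.17 (SE, adjusted p = 0.158)), higher in both day 4 libraries but not called. Kif17, a homodimeric kinesin-2 of dendrites and cilia, stayed at 17.4 to 67.6 scaled counts in all 10 libraries, with a log2 change of -1.15 ± 0.56 (SE, adjusted p = 0.13).

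The 2 minus-end directed transport kinesins moved in opposite directions. Kifc2, known from dendrites, was at 813 and 685 at day 0 and 1906 and 1957 at day 4, 2.58-fold higher (1.37 ± 0.19 (SE, adjusted p = 0.000546)), with days 1 to 3 in between at 1016 to 1231. Kifc3, which acts at epithelial cell junctions, was at 890.1 and 1735 at day 0, 1262 and 449.5 at day 1, 189 and 153 at day 2, 169.8 and 167 at day 3 and 396 and 515 at day 4. All libraries of days 2 and 3 were below all others, and day 4 lay below day 0 with a log2 change of -1.46 (adjusted p = 0.0324). This call is weak: its adjusted p ran from 0.00369 to 0.169 over the alternatives, and it was lost without the second day 0 library (0.123), without either library of day 3 (0.0523 and 0.052) or of day 4 (0.169 and 0.0861), and when only days 0 and 4 were fitted (0.0569).

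Of the 6 cilium and Hedgehog motors, 5 had an estimate above 0 at day 4 and 1 passed the test. Kif27, a vertebrate relative of the fly Hedgehog regulator Costal-2, was at 34 and 30.9 at day 0 and 125 and 124 at day 4, 3.83-fold higher (1.91 ± 0.42 (SE, adjusted p = 0.00727)), while days 1 to 3 ranged from 23.3 to 64.1. Its call was lost without the first or the second day 4 library (adjusted p = 0.0521 and 0.0514). Kif7, which organises the tip of the cilium and regulates Gli factors, was at 629 and 852 and 1059 and 1113 (0.57 ± 0.21 (SE, adjusted p = 0.0554)), higher in both day 4 libraries without passing the test. Kif24 and Kif6 had log2 changes of 0.89 (adjusted p = 0.0701) and 1.41 (adjusted p = 0.0672), Kif9 0.31 and Kif19a -0.80. DESeq2 also called Kif7 higher (adjusted p = 0.0334), and limma on TMM-scaled log2 CPM called Kif7 (0.0485) and Kif6 (0.0288). Without the first day 0 library Kif6 gained a call (0.0144), and without the second Kif7 (0.00786) and Kif24 (0.0019). In the 10 libraries Kif6 was at 12.9 to 70.7, Kif9 at 27.9 to 84.9 and Kif19a at 19 to 52.7. Of the 3 ciliated cell markers in the tables, Foxj1 was at 226 and 79.5 at day 0 and 698 and 371 at day 4 (log2 change 1.91, adjusted p = 0.0269), Tekt1 fell (-1.96, adjusted p = 0.0143) and Spag6 was at 20 to 46; their summed level was 365 and 246 at day 0 and 779 and 427 at day 4. The part of ciliated cells in the Kif27 change was not tested.

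The other motors held the largest rise. Kif26b, an atypical kinesin linked to Wnt5a-Ror signalling and kidney development, was at 19.8 and 26.1 at day 0, at 8.78 to 23.3 from day 1 to day 3, and at 225 and 479 at day 4. Its day 4 mean was 15.4-fold above day 0 (3.80 ± 0.47 (SE, adjusted p = 0.000335)), and the 2 day 4 libraries differed from each other by more than those of any other day. Kif26a, its relative, was at 371 and 585 at day 0, 558 and 894 at day 1, 948 and 1031 at day 2, 1165 and 1462 at day 3 and 1992 and 2017 at day 4. Its day means increased at every step, 4.19-fold in all (2.10 ± 0.28 (SE, adjusted p = 0.000486)), and the groups of day 0 and day 4 did not overlap.

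The kinesin-4 motors Kif21a and Kif21b, which curb microtubule growth, both rose. Kif21a was at 833 and 665 at day 0, 1416 and 2176 at day 1 and 1851 and 2233 at day 4 (1.45 ± 0.27 (SE, adjusted p = 0.00308)). Kif21b was at 927 and 929.6 at day 0, 611 and 1133 at day 1, 1345 and 1970.5 at day 3 and 2695 and 3172 at day 4 (1.65 ± 0.29 (SE, adjusted p = 0.00198)). All later libraries were above both day 0 libraries for Kif21a, whereas 1 library of day 1 lay below them for Kif21b. Kif12 rested on 56 reads in the whole time course and was at 2.2 and 1.19 at day 0 and 18.1 and 14.1 at day 4 (2.69 ± 0.64 (SE, adjusted p = 0.0101)). DESeq2 did not call Kif12 (adjusted p = 0.0513), and the limma call was lost without the first day 4 library (0.072). Kif2a, the relative of Kif2c that shortens microtubules in growing axons and at spindle poles, was at 2251 and 3266 and 2778 and 3145 (0.12 ± 0.19 (SE, adjusted p = 0.635)).

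Single days seldom separated kinesin genes. From day 0 to day 1, 1 of 39 was called, beside 3.3% of all genes (1.75% higher, 1.55% lower): Kif21a rose by 1.24 ± 0.27 (SE, adjusted p = 0.0391) on the log2 scale. From day 1 to day 2, 1 was called, beside 0.593% (0.158% higher, 0.436% lower): Kif1a rose by 3.16 ± 0.51 (SE, adjusted p = 0.0399). From day 3 to day 4, 1 was called, beside 2.93% (2.31% higher, 0.619% lower): Kif26b rose by 4.01 ± 0.47 (SE, adjusted p = 0.00234). Between days 2 and 3, 0 of 39 were called by limma, edgeR or DESeq2, beside 0.133%, 0.152% and 1.99% of all genes. At an unadjusted p under 0.05 each tool had 1, Kif1c, beside 10.4%, 10.2% and 11% of all genes. The Kif1a step was lost with edgeR (0.053), with no filter on low counts (0.0583), without the first day 1 library (0.263) and without any one library of days 2 to 4 (0.0875 to 0.554). The Kif21a step was lost with no filter (0.0523), in a fit of days 0 and 1 alone (0.262) and without any one library of days 1, 2 or 4 (0.0507 to 0.226). The Kif26b step was lost without the second day 4 library (0.0541). Without the second day 0 library, 8 members were called from day 0 to day 1, beside 32.5% of all genes. Without either day 0 library or the second of day 1, 3 were called from day 1 to day 2 (beside 5.18% to 11.1% of all genes), and without either day 0 library 3 from day 3 to day 4 (beside 8.26% and 8.24%).

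Genes that work with these motors were counted in the same comparison of day 4 with day 0, beside 19.2% of all genes called higher and 16.7% lower. Of 24 mitotic partners (spindle, checkpoint and cytokinesis genes), 7 fell and 0 rose, with a median log2 change of -0.39; Ect2, which activates RhoA at the cleavage furrow, was at 6614 and 10293 at day 0 and 4152 and 3475 at day 4 (-1.12, adjusted p = 0.00314), Hmmr fell by 0.64 and Prc1, the midzone bundler that recruits Kif4, by 0.71 (adjusted p = 0.00873 and 0.00908). The 7 became 11 without the first day 0 library, 4 and 1 without the first and the second of day 4, and 1, Ect2, in a fit of days 0 and 4 alone, beside 19.2%, 7.96%, 8.41% and 7.8% of all genes called lower. edgeR and DESeq2 also called 7 lower and 0 higher, beside 16.7% and 19.6% of all genes lower and 18.8% and 20% higher. At an unadjusted p under 0.05 each of the 3 tools had 0 of these partners higher. Of all genes, limma, edgeR and DESeq2 had 46.6%, 46.6% and 47.4% there in either direction. The share of all genes in the higher direction alone was not counted. Of 16 cargo adaptors and kinesin light chains 3 rose and 1 fell (median 0.21): Mapk8ip2 (JIP2), a scaffold that binds kinesin light chains, was at 319 and 359 and 659 and 807 (1.11, adjusted p = 0.00581), Plekhm2 (SKIP), which links kinesin-1 to lysosomes, rose by 1.06 and Mapk8ip3 by 0.80 (adjusted p = 0.0133 and 0.0287). The adaptor rises came to 5 without either day 0 library, 1 without the first and 0 without the second of day 4 (there 3 at an unadjusted p under 0.05). Of all genes, 21.6% and 24.4% were called higher without the first and second day 0 library, and 9.78% and 9.44% without the first and second of day 4, so the adaptors' rises lay near the share of all genes in the fit of all libraries.

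Of 13 subunits of cytoplasmic dynein and dynactin, the minus-end motor complex, 1 fell (median -0.013), the light chain Dynll1 at 16504 and 9046 and 6191 and 7059 (log2 change -0.89, adjusted p = 0.0243). Dync1i1 and Dctn3 had -1.85 (adjusted p = 0.083) and -0.53 (adjusted p = 0.0943). Of 14 intraflagellar transport genes, the cargo complexes that kinesin-2 moves in cilia, 2 rose (median 0.27), Ift122 from 526 and 559 to 959.9 and 1147 (0.95, adjusted p = 0.00706) and Ift81 from 539 and 549.7 to 909 and 953 (0.77, adjusted p = 0.0379). Ift20 had -0.53 (adjusted p = 0.0525). Dynll1 was not called without the first day 0 library or without either library of day 4, and the intraflagellar transport rises came to 5 without the second day 0 library and to 1 and 0 without the first and the second of day 4. With all libraries, the share of this list that rose was below the 19.2% of all genes.

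Between p53 family loss and Trp53+/+ EBs at day 4, 0 of the 38 kinesin genes tested were called by limma, beside 1.24% of all 14840 genes (0.566% higher, 0.674% lower). At an unadjusted p under 0.05 limma had 5 (Kif20a, Kif26a, Kif5a, Kif5c and Kifc1), beside 13.9% of all genes. edgeR had 6 there, beside 14% of all genes, and called 0, beside 1.24%. DESeq2 called 2, Kif26a lower (adjusted p = 0.024) and Kif5a higher (0.0492), beside 1.91% of all genes higher and 2.52% lower. It had 5 at an unadjusted p under 0.05, beside 11.8% of all genes. Without the first Trp53+/+ library 4 were called (Kif26a lower; Kif13b, Kif14 and Kif5c higher) and without the second 5 (Kif26a, Kif26b and Kif27 lower; Kif5a and Kif5c higher), beside 10.8% and 7.45% of all genes. The median log2 difference was 0.18 over the 12 mitotic motors, -0.011 over the 15 transport motors, 0.040 over the 6 cilium and Hedgehog motors and -0.099 over the 5 other motors, beside 0.007 over all genes. Kif12, with 3 reads in these 4 libraries, and Kif2b were not tested.

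The members with the smallest p were Kif26a, Kif5c and Kif5a. Kif26a was at 1864 and 1637 in Trp53+/+ and 1081 and 1025 in p53 family loss, both lower (-0.73 ± 0.16 (SE, adjusted p = 0.11)). Kif5c was at 1108 and 1121 and 1759 and 1712 (0.64 ± 0.15 (SE, adjusted p = 0.125)), and Kif5a at 391 and 460.4 and 817 and 678 (0.81 ± 0.20 (SE, adjusted p = 0.14)), both genes higher in both libraries of p53 family loss. The groups of these 3 genes did not overlap, and none passed the test. The share of all genes whose groups separated was not counted, here or for day 4 against day 0. With 2 libraries a group, a lack of overlap therefore only describes the values. Of their relatives, Kif5b had 0.093 ± 0.20 (SE, adjusted p = 0.895) with overlapping groups, and Kif26b, at 144 and 46.4 against 48.8 and 19.8, had -1.37 ± 0.65 (SE, adjusted p = 0.441), also with overlap.

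Cell type markers moved with genotype too. Of the 6 mesendoderm markers 5 were called lower in p53 family loss, with summed levels of 6482 and 6480.1 against 30989 and 34981. The neuron and neural precursor markers summed to 6918 and 7610.3 against 2414 and 4316. Of the 10 tested, 8 had an estimate above 0 and 2 below (median 0.71). The 2 called higher were Sox1 (2885 and 2596 against 104 and 125) and Pax6 (496 and 469.6 against 17.4 and 17.2). Tubb3 was at 1291 and 1718 against 310 and 903 (1.49, adjusted p = 0.235). Snap25 and Syt1, of mature neurons, were at 41.3 to 87.6 and 14.8 to 47.3 over the 4 libraries. The part of cell type in the Kif26a, Kif5c and Kif5a values was not tested.

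For the mitotic motors, the estimate was above 0 for 9 of 12, beside 11 of the 24 mitotic partners and 7570 of all 14840 genes tested. Of these 12, 10 were lower in the first library of p53 family loss than in the second, as were 23 of the 24 mitotic partners, beside 53.2% of all genes. Without that second library the median of the mitotic motors was 0.098 in place of 0.18, and the estimate was below 0 for 5 of 12. Kif20a was at 5346 and 5032 in Trp53+/+ and 6687 and 7062 in p53 family loss (0.41 ± 0.14 (SE, adjusted p = 0.289)), and Kifc1 at 2305 and 2269 and 1623 and 1577 (-0.52 ± 0.15 (SE, adjusted p = 0.189)), both without overlap. Kifc5b, its copy, had -0.54 (adjusted p = 0.259), and the sum of both copies was 1.44-fold lower in p53 family loss. Kif11 was at 5948 and 5786 and 5481 and 6842 (0.062 ± 0.17 (SE, adjusted p = 0.919), 95% interval -0.34 to 0.47). Kif23, Kif4, Kif2c and Kif22 had log2 differences of 0.25, 0.17, 0.069 and -0.026 (adjusted p = 0.539, 0.706, 0.914 and 0.969). Cdkn1a, a p53 target, was at 203 and 127 against 2096 and 2323 (-3.77, adjusted p = 0.00424).

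**Figure D5:**
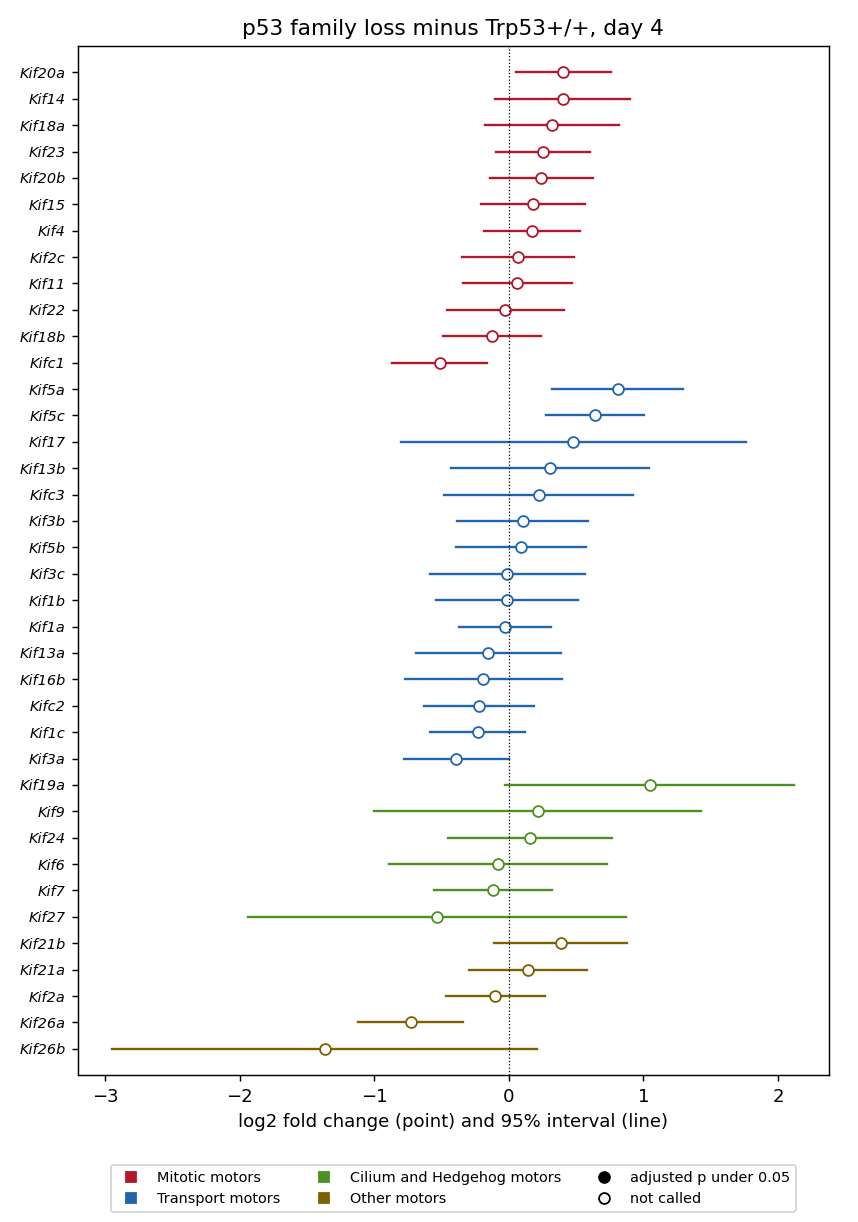
Log2 difference between p53 family loss and Trp53+/+ EBs at day 4 for the 38 kinesin genes tested, grouped and coloured by class, with the 95% interval of the limma fit (2 residual degrees of freedom); open points did not pass an adjusted p of 0.05. No point is filled, and Kif5a, Kif5c, Kif20a, Kif26a and Kifc1 have intervals that leave out 0.

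Kif1a, Kif1b, Kif1c, Kif3a, Kif3c, Kifc2, Kifc3 and Kif27, the transport and cilium motors called from day 0 to day 4, were not called between the genotypes in the fit of all 4 libraries. Kif1a was at 6273 and 6141 in Trp53+/+ and 6007 and 6163 in p53 family loss (-0.029 ± 0.14 (SE, adjusted p = 0.956), 95% interval -0.37 to 0.31), with overlapping groups. Kif3a was lower in both libraries of p53 family loss, at 956 and 1024 against 1235 and 1363 (-0.39 ± 0.16 (SE, adjusted p = 0.36)), while Kif1c and Kifc2 had -0.23 and -0.22, also without overlap. Kif1b, Kif3c and Kifc3 had -0.013, -0.011 and 0.22, with overlapping groups. Of the motors not called over time, Kif3b, Kif17 and Kif7 had log2 differences of 0.10, 0.48 and -0.12, and the groups of each overlapped. Kif27 was at 112 and 33.2 in the 2 Trp53+/+ libraries and 46.6 and 37.8 in p53 family loss, beside Foxj1 at 888 and 322 and 91.7 and 107. In both genes the first Trp53+/+ library was the highest of the 4.

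Of the partner lists, limma called 0 of the 24 mitotic partners, 16 adaptors and light chains, 13 dynein and dynactin subunits and 14 intraflagellar transport genes between the genotypes, with medians of -0.0046, -0.0072, 0.054 and -0.020. At an unadjusted p under 0.05 limma had 0, 0, 0 and 1, beside 13.9% of all genes. edgeR called 0 in each list, and DESeq2 called 1 intraflagellar transport gene lower. Of all genes, limma called 1.24%, edgeR 1.24% and DESeq2 4.43%. With so few genes called in all, 0 calls in lists of this size say little about their members. The smallest p among the mitotic partners was that of Prc1 (0.36, adjusted p = 0.477), followed by Foxm1 (-0.31, 0.483) and Ect2 (0.29, 0.57). Rhot1, Arl8a and Kifap3, the adaptor of the Kif3 motor, had 0.24, -0.29 and -0.23, and Dctn4, Dync1i1 and Dctn2 0.36, 0.92 and -0.19. Ift122 was at 727 and 750.0 in p53 family loss against 1321 and 1197, lower in both (-0.77 ± 0.16 (SE, adjusted p = 0.105)), while Ift172 and Ift140 had 0.41 and 0.32.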

How the data were processed

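The 40 members and the gene lists were chosen with earlier results of these data known. Per the labels' protocols, the RNA had an integrity number over 9.5 and TruSeq RNA v2 kits made the paired-end libraries. The submitters' processing notes name the mm9 build and, with no role given, HTSeq 0.5.4, SAMtools 0.1.19, FastQC 0.11.3, DESeq2 and Bowtie2. The deposited tables, 1 per experiment, hold a signal per gene symbol: 100% of values were whole multiples (within 1e-06) of the smallest step of their library, so they are read counts that the authors divided by 1 factor per library. The tables were scaled separately, and levels are not compared between them or between genes, since no transcript lengths were used. Kifc1 shares near-identical sequence with Kifc5b.

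Each table was fitted whole in R 4.3.3 by limma 3.58.1 (trend on mean intensity) on log2(signal + 1), with Benjamini-Hochberg adjustment and a call at an adjusted p under 0.05. Genes were filtered with filterByExpr on the recovered reads, which left 15841 and 14840 of 23284, with 5 and 2 residual degrees of freedom. Of the members 39 and 38 passed; a low gene passes where 1 group is high. Lists are described by counts and medians, with no test. Named with full statistics were up to 12 called members with the smallest p per comparison, 17 members always given values, and 3 genes per list; other members were named as the subject. Gdf15, Ier2 and Mdm2 fell by day 4 among 11 immediate early and p53 response genes (3 called), and Ccng1 and Cdkn1a were called lower in p53 family loss. Of 5 feeder fibroblast markers 0 were called for day 4 against day 0, but all 5 passed the F-test for a change on any day. Their summed level was 815 and 922 at day 0 and 972 and 2524 at day 4. In p53 family loss all 5 had an estimate above 0, and Col1a2 was called higher. Of 4 epiblast markers 3 were called higher by day 4 and 1 lower, and 0 of 4 by genotype.

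Alternatives were edgeR 4.0.16 with TMM and DESeq2 1.42.0 on the recovered reads, log2 CPM with TMM, a pseudocount of 5, no filter, only the groups compared, a replicate block and leaving out each library. Promoter letters came from RefSeq (GRCm38.p6). The 16 ChIP-seq and input samples were not analysed here.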

Additional observations from a re-analysis of the deposited data

How the results depend on the processing

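With 2 libraries a group, the counts depend on single libraries. Leaving out each library in turn gave 9 to 23 members for day 4 against day 0 (15 with all), 9 to 25 for any day (14), 0 to 8 for day 1 against day 0 (1), 0 to 3 for day 2 against day 1 (1), 0 to 0 for day 3 against day 2 (0), 0 to 3 for day 4 against day 3 (1) and 0 to 5 for the genotypes (0). Where this left 1 library in a group, that library was assumed to vary like the other groups. Other settings gave 11 to 17 for day 4 against day 0 and 13 to 17 for any day, while the share of all genes called moved too. For day 4 against day 0 the 11 came with only the groups compared (17.7% of all genes) and the 17 with TMM-scaled log2 CPM (35.7%). For any day the 13 came with no filter (29.8%) and the 17 with DESeq2 (49.7%). With DESeq2, the counts were 3 for each of days 1, 2 and 4 against the day before and 2 for the genotypes, where it called 9.15%, 8.14%, 6.48% and 4.43% of all genes (limma 3.3%, 0.593%, 2.93% and 1.24%). With edgeR, day 2 against day 1 gave 0 members (beside 0.48% of all genes). With no filter, days 1 and 2 against the day before gave 0 each (beside 2.07% and 0.105%). With only the groups compared, day 1 against day 0 gave 0 and day 4 against day 3 gave 6 (beside 0.0631% and 8.57% of all genes), and with TMM-scaled log2 CPM the latter gave 2 (beside 4.02%).

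Calls for day 4 against day 0 held under all 17 alternatives for Kif1a, Kif1c, Kif21a, Kif21b, Kif26a, Kif26b, Kifc1 and Kifc2. Directions turned for Kif14 at day 4 against day 0, from 0.0095 to -0.12 with edgeR and -0.15 with DESeq2, and to between -0.68 and 0.70 when single libraries were left out. Leaving out libraries also gave -0.94 to 0.43 for Kif13b and -0.48 to 0.095 for Kif15 at day 4, -0.34 to 1.05 for Kif14 and -0.018 to 1.11 for Kif24 at day 1, and -0.14 to 0.76 for Kif13b and -1.40 to 0.33 for Kif27 between the genotypes. The cause was not tested.

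Replicate numbers were not taken as pairs. Across genes, deviations of same-numbered libraries had r of -0.19 to 0.351 over 10 pairs of days, with 3 above 0.1, and 0.572 for the only pair of the genotypes. With a replicate block, 16 members were called for day 4 against day 0, beside 36.5% of all genes. The block gave 9 for the genotypes (Kif14, Kif20a, Kif21b, Kif5a and Kif5c higher, and Kif26a, Kif26b, Kif3a and Kifc1 lower), where all genes called rose from 1.24% to 20%. Kif12, Kif17 and Kif6, each at 70.7 scaled counts or fewer in every E14 library, had the largest standard errors of the members for day 4 against day 0 (0.54 to 0.64 on the log2 scale), which limits what this depth can show for them.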
